A study of Mus musculus with 20 samples.

Results

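The 10 genes described here are the heavy-chain constant regions Ighm, Ighd, Ighg3, Ighg1, Ighg2b, Ighg2c, Ighe and Igha, the kappa light-chain constant region Igkc, and Jchain, which encodes the joining chain. They were taken by gene symbol from the 55486 genes of the bone marrow and kidney count tables, and all 10 were found in both. C57BL/6 mice, 10 weeks old at the start, received 10 mg/kg oxaliplatin, a platinum chemotherapy drug, intraperitoneally in 5% dextrose for 8 weeks, or 5% dextrose alone as control. RNA was sequenced from bone marrow of tibia and femur and from kidney in 4 groups of 5 libraries, marrow control, marrow oxaliplatin, kidney control and kidney oxaliplatin, 20 libraries in all. The methods text names male and female mice, and the labels give no sex. The mice carried no other allele or agent by the labels, and how the kidneys were collected is not described in the sources used here. The comparison asks whether oxaliplatin altered antibody transcripts in each tissue, and whether the unswitched isotypes IgM and IgD moved as the switched isotypes IgG, IgE and IgA did.

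A B cell begins with IgM and IgD, which are spliced from one long transcript over the Ighm and Ighd exons. Class switching then joins the same variable region to a constant region farther downstream, so that the cell makes IgG, IgE or IgA instead. Mature B cells keep antibody on the membrane, whereas plasma cells, many of which live in the bone marrow, secrete it in large amounts. The J chain links IgM and IgA units into polymers, and the receptor Pigr carries these polymers across epithelia into mucosal fluids. Kappa is the main light chain of the mouse and pairs with any heavy chain.

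The 8 heavy-chain regions lie on the minus strand of chromosome 12 (GRCm38) in the order Ighm (chr12:113418558-113422730), Ighd (chr12:113406604-113416324), Ighg3, Ighg1, Ighg2b, Ighg2c, Ighe and Igha (chr12:113254830-113260236), the order in which switching can reach them. Igkc is on the plus strand at chr6:70726435-70726966 and Jchain on the minus strand at chr5:88519809-88527891. No exon of the 10 genes overlapped an exon of another gene in the GENCODE M21 annotation. The end of the secreted coding sequence separates the isotypes that bind the J chain from the others. The last 60 coding bases of the secreted forms, read from the reference, are shown for IgM, IgA and IgG1, with the next-to-last codon in capitals where it is a cysteine codon, the residue known to hold the J chain.
Ighm (chr12:113420870-113420929): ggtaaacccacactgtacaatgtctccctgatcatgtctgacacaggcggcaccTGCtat
Igha (chr12:113258771-113258830): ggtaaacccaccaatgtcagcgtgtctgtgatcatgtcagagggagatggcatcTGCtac
Ighg1 (chr12:113328979-113329038): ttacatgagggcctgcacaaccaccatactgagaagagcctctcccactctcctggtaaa
Ighm and Igha each had 59 coding bases found only in the secreted form, against 65 in Ighd, 23 in Ighe and 5 in each of the IgG genes, and among the 8 heavy chains only these 2 had the cysteine codon. The IgG subclasses resemble one another and differ in the hinge, the flexible exon between the antigen-binding arms and the stem. The hinge exons are printed because the IgG genes behaved differently from library to library and their counts depend on telling them apart.
Ighg3 (chr12:113360529-113360576): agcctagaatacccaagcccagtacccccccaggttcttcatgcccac
Ighg1 (chr12:113329844-113329882): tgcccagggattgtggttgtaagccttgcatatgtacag
Ighg2b (chr12:113307261-113307326): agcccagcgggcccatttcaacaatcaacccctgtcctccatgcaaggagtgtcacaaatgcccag
Ighg2c (chr12:113288263-113288325): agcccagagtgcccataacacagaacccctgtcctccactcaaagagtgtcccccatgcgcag
Ighg2b and Ighg2c have hinges of 66 and 63 bases, whereas those of Ighg3 and Ighg1 are 48 and 39 bases long. Of 50-base exon windows, 5.49% in Ighg2c, 4.15% in Ighg2b, 1.58% in Ighg3 and 0.393% in Ighg1 also occurred in another of the 10 genes. Of 75-base windows, 0.48%, 0.768%, 0.574% and 0% did, in the same order. No window of 100 bases did in any of the 10 genes. The read length is not given in the sources used here, so that some exchange of reads among the IgG genes is uncertain.

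Total counts ranged from 30660153 to 41140527 per marrow library and from 24393007 to 30925430 per kidney library, so that 3 counts, the upper limit for a gene with none, corresponded to at most 0.0975 CPM (counts per 1000000 library counts, after scaling between libraries) in marrow and 0.130 CPM in kidney. Marker genes matched the tissue labels: 5 kidney tubule genes summed to 14332 to 18694 CPM in kidney and to at most 1.01 CPM in marrow, and 6 neutrophil and monocyte genes summed to 6309 to 12165 CPM in marrow. The 10 antibody genes took 0.214% ± 0.0319 (SD, n = 5) of all counts in control marrow and 0.424% ± 0.142 (SD, n = 5) in oxaliplatin marrow. In kidney they took 0.00384% ± 0.00181 and 0.00133% ± 0.000466 (SD, n = 5 each).

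In bone marrow, oxaliplatin was followed by opposite changes within the antibody genes. Ighm and Ighd fell, by 2.53-fold and 3.77-fold in mean CPM. Igha, Igkc, Jchain and the scarce Ighe rose, by 2.91-fold, 1.96-fold, 2.55-fold and 5.84-fold. The 4 IgG genes did not pass the test in either direction. A gene was called when edgeR's quasi-likelihood test over all 22363 genes tested gave a Benjamini-Hochberg adjusted p below 0.05 and a fold beyond 1.5. By that rule 4 of the 10 antibody genes were called higher and 2 lower, beside 11.6% of all tested genes called higher and 11.8% called lower. Their median log2 fold change was 0.65, beside -0.04 over all genes. Both groups of libraries were fully apart, each oxaliplatin library above each control, for Igkc and Jchain, which 11.4% of all tested genes also were, and in the other direction for Ighm and Ighd, as were 13.5% of all genes.

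**Figure D1:**
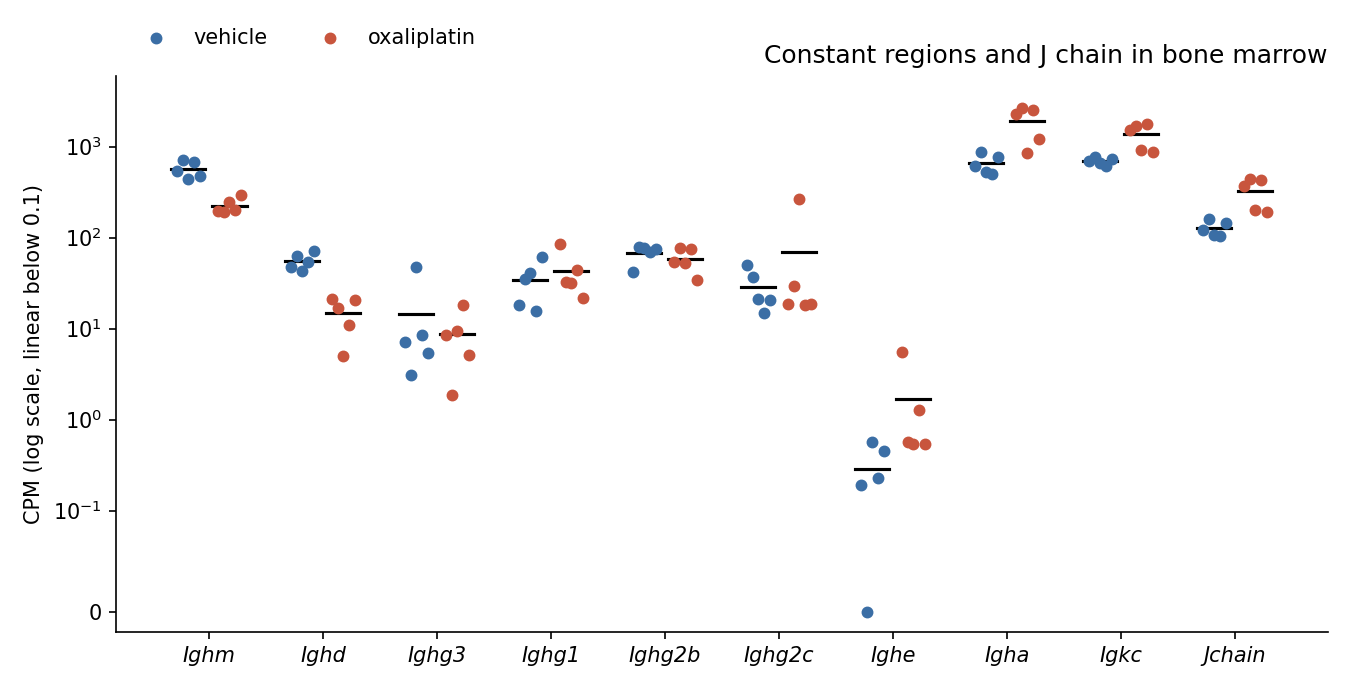
Level of each antibody gene in bone marrow, in CPM on a log axis that is linear below 0.1, for 5 control (vehicle) and 5 oxaliplatin libraries; each point is 1 library and each black line a group mean. The oxaliplatin points of Ighm and Ighd lie below all controls, those of Igkc and Jchain lie above all controls, and 1 oxaliplatin library stands far above the rest for Ighg2c at 264 CPM.

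Ighm encodes the heavy chain of IgM, the isotype of newly made B cells. Its level in the 5 control marrows was 538, 706, 443, 683 and 476 CPM, and in the 5 oxaliplatin marrows 196, 191, 244, 201 and 292 CPM. The highest treated library thus lay well under the lowest control. The log2 fold change was -1.34 (SE 0.16, adjusted p = 4.09e-05, edgeR). Ighd, the partner of Ighm on naive B cells, had 47.6, 63.2, 42.4, 54.1 and 72.0 CPM in controls and 20.9, 16.8, 4.94, 11.1 and 20.4 CPM after oxaliplatin. It fell by 1.92 on the log2 scale (SE 0.33, adjusted p = 9.81e-04, edgeR), with all 5 treated libraries under the controls and replicate 3 the lowest. In bulk RNA, fewer cells of a type and less RNA per cell cannot be told apart, and this holds for each change given here.

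Igha encodes the heavy chain of IgA, the antibody of mucosal surfaces. It had 608, 875, 528, 505 and 765 CPM in control marrow and 2302, 2647, 858, 2534 and 1213 CPM after oxaliplatin. Replicates 1, 2 and 4 were far above every control, replicate 5 was above them by less, and replicate 3 fell just inside the control range, so that 4 of 5 treated libraries exceeded all controls. The log2 fold change was 1.54 (SE 0.30, adjusted p = 0.00162, edgeR). Igkc rose from 692, 775, 658, 620 and 738 CPM to 1527, 1700, 923, 1775 and 884 CPM. The same replicates 3 and 5 were the lowest of the treated group, yet both stayed above every control (log2 fold change 0.97, SE 0.20, adjusted p = 0.00197, edgeR). Jchain had 120, 162, 107, 105 and 145 CPM in controls and 371, 444, 200, 426 and 191 CPM after oxaliplatin, again with replicates 3 and 5 lowest and no overlap with controls. Its log2 fold change was 1.35 (SE 0.25, adjusted p = 0.00108, edgeR).

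Ighe encodes the heavy chain of IgE, the antibody of allergic and antiparasite responses, and was scarce. Control libraries held 6, 0, 18, 8 and 14 counts and oxaliplatin libraries 190, 18, 23, 58 and 20 counts. Replicate 1 of the treated group carried most of the difference, and only 2 of 5 treated libraries lay above all controls. The gene was called (log2 fold change 2.54, SE 0.85, adjusted p = 0.0374, edgeR), but without that library the log2 fold change was 1.36 and the adjusted p 0.153, and the call was also lost without control replicate 1, 2, 4 or 5 (adjusted p 0.0559 to 0.0856).

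The IgG genes, whose products are the main antibodies of serum, varied widely between libraries of 1 group. Ighg2b was the most even, with 68.5 ± 15.2 CPM in controls and 58.7 ± 17.8 CPM after oxaliplatin (SD, n = 5 each; log2 fold change -0.22, SE 0.22, adjusted p = 0.487, edgeR). Ighg1 had 18.4, 35.4, 41.0, 15.5 and 60.7 CPM in controls and 84.2, 32.2, 32.0, 44.4 and 21.9 CPM after oxaliplatin (log2 fold change 0.33, SE 0.42, adjusted p = 0.601, edgeR). The ranges overlapped almost wholly. Ighg2c had 49.98, 36.9, 21.2, 14.7 and 20.4 CPM in controls and 18.7, 29.6, 264, 18.3 and 18.7 CPM after oxaliplatin, so that 1 library held most of the group's signal. With it the log2 fold change was 1.29 (SE 0.84, adjusted p = 0.280, edgeR), and without it -0.43 (adjusted p = 0.422). Ighg3 showed the reverse case, with 7.06, 3.08, 47.5, 8.58 and 5.39 CPM in controls and 8.56, 1.85, 9.42, 18.2 and 5.18 CPM after oxaliplatin. Its log2 fold change of -0.72 (SE 0.78, adjusted p = 0.526, edgeR) became 0.52 without control replicate 3.

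The markers of other cell types moved as well. The 6 erythroid markers summed to 25392 to 46351 CPM in control marrow and to 2704 to 9172 CPM after oxaliplatin, with 6 of 6 called lower, and 5 of 5 adipocyte markers were called higher, their sum going from 72.5 to 131 CPM in controls to 368 to 1469 CPM. The 5 T cell markers summed to 78.9 to 111 CPM and 35.1 to 55.8 CPM, with 1 called lower, and the 3 macrophage markers to 268 to 374 CPM and 388 to 700 CPM, with 1 called higher. When the hemoglobin genes were left out before scaling, the log2 fold changes were -1.31 for Ighm, -1.90 for Ighd, 1.57 for Igha, 1.00 for Igkc and 1.38 for Jchain, and the same 6 antibody genes were called; any other part of these cell types in the results was not tested. Scaling by library size alone moved the median over all genes from -0.04 to 0.11 and the split of called genes from 2589 higher and 2632 lower to 3431 and 1984, and all 10 antibody genes kept their direction under each scaling.

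**Figure D2:**
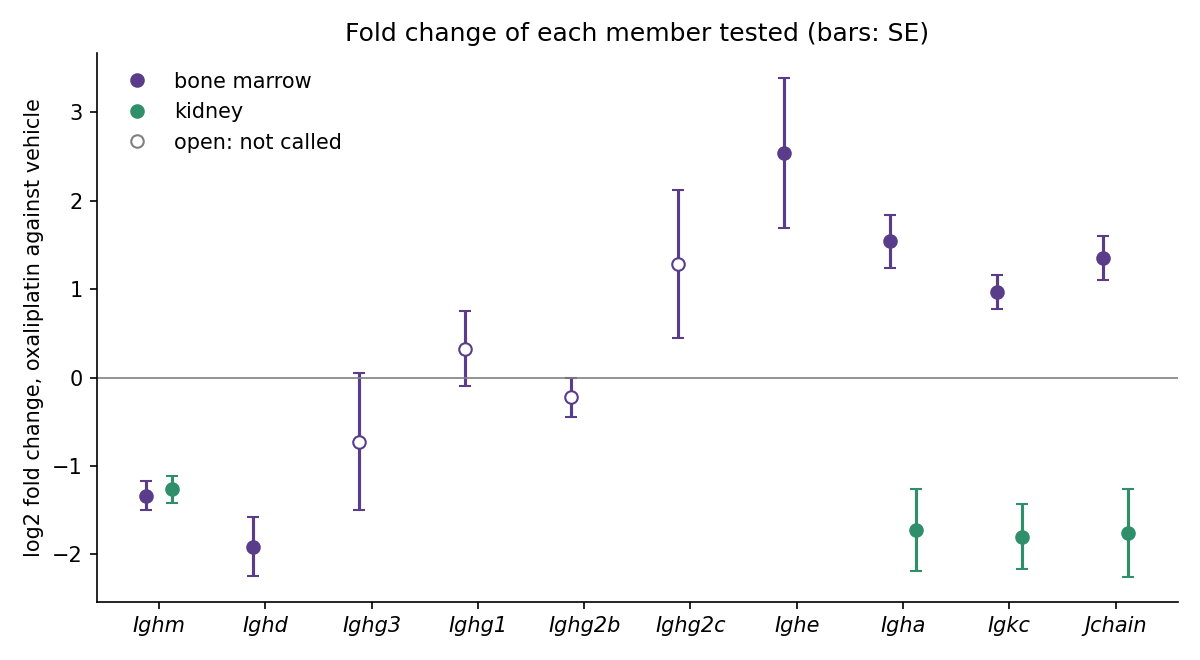
Log2 fold change of oxaliplatin against control (vehicle) for the antibody genes that passed the count filter, 10 in bone marrow and 4 in kidney, with bars of 1 standard error; filled points were called. Ighm lies near -1.3 in both tissues, whereas Igha, Igkc and Jchain are above 0 in marrow and below 0 in kidney.

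Levels of different genes are set in order here per length of exon, in CPM per kilobase. The length takes in all annotated exons of a gene, those of the membrane form included. It was 1886 bases for Ighm, 2668 for Igha, 2678 for Ighg2b and 1326 for Ighg2c, so that orders and shares per length depend on the annotation. In control marrow, Igkc was highest at 1309 ± 116 CPM per kilobase, and its range overlapped no other. Ighm followed at 302 ± 63.5 and Igha at 246 ± 59.7 CPM per kilobase, with overlapping ranges, and then Jchain at 50.8 ± 9.84 (SD, n = 5 each). Below Jchain came Ighd at 29.4, Ighg2b at 25.6, Ighg2c at 21.6, Ighg1 at 13.2 and Ighg3 at 5.70 CPM per kilobase, each overlapping the next, and Ighe was lowest at 0.182. After oxaliplatin the order was Igkc at 2559 ± 804, Igha at 716 ± 307, Jchain at 130 ± 48.7 and Ighm at 119 ± 22.7 CPM per kilobase, so that Ighm moved from rank 2 of 10 to rank 4 and overlapped Jchain. Ighd moved from rank 5 to rank 8, at 7.81 ± 3.57 CPM per kilobase (SD, n = 5).

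The makeup of the heavy-chain counts is given first as shares of counts, which weight long genes more, and then per length. Of all heavy-chain counts in control marrow, Ighm made up 40.0% ± 6.75 and Igha 45.7% ± 5.47 (SD, n = 5). After oxaliplatin Ighm made up 11.1% ± 5.81 and Igha 79.1% ± 12.5 (SD, n = 5). The 6 switched isotypes together took 55.3%, 57.2%, 59.6%, 45.5% and 62.9% in the controls and 91.9%, 93.1%, 83.0%, 92.7% and 80.6% in the treated libraries. No treated library reached down to the highest control, and exact binomial 95% intervals of these single-library shares were at most 0.988 percentage points wide, counting error only. The mean was 56.1% ± 6.57 and 88.2% ± 5.98 (SD, n = 5). The gain lay in Igha, since the 4 IgG genes together took 10.4% ± 3.05 in controls and 9.13% ± 8.57 after oxaliplatin, the latter with 24.4% in replicate 3 and 4.70% to 6.14% in the other 4. In that library Ighg2c alone took 18.01% (exact 95% interval 17.7% to 18.3%), against 0.631% to 1.16% in the other treated libraries. Per exon length, Ighm was ahead of Igha in control marrow, at 46.9% ± 6.88 and 38.0% ± 5.23, and behind it after oxaliplatin, at 14.1% ± 6.70 and 73.4% ± 16.3 (SD, n = 5 each). The switched share per length was 48.5% ± 6.58 in controls and 85.1% ± 6.95 after oxaliplatin (SD, n = 5), again without overlap. These shares are descriptions, since the rise of 1 isotype lowers the share of the others.

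**Figure D3:**
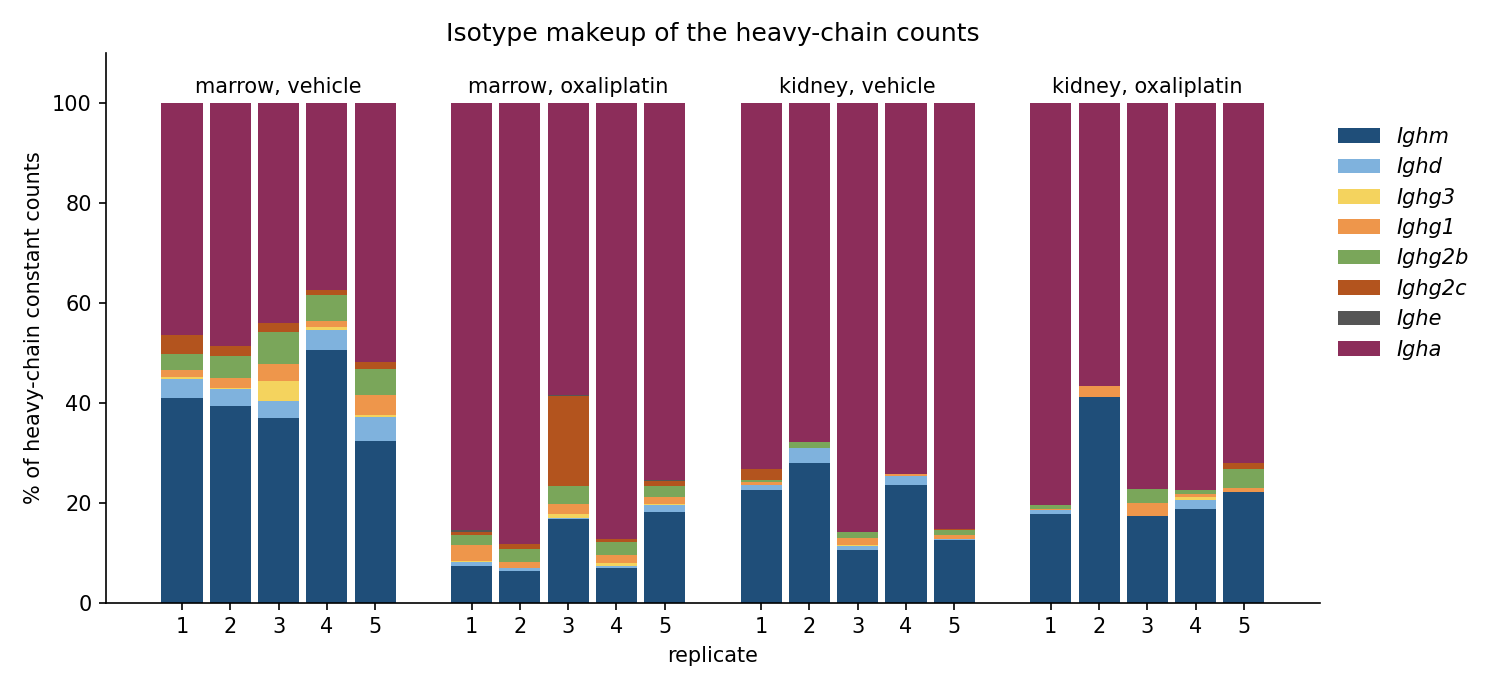
Share of each isotype in the heavy-chain constant counts of each of the 20 libraries, in percent; each bar is 1 library and its colours add to 100. In marrow the Ighm share goes from 32.3% to 50.5% in controls to 6.37% to 18.2% after oxaliplatin, Igha fills the difference, and replicate 3 of the treated marrow shows a broad Ighg2c band.

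Ratios of counts are compared between groups, not between genes of different length. There were 1.18 ± 0.310 counts of Igha per count of Ighm in control marrow and 9.17 ± 4.93 after oxaliplatin (SD, n = 5), with the lowest treated library at 3.51 and the highest control at 1.61. Jchain held 0.197 ± 0.00953 counts per count of Igha in controls and 0.177 ± 0.0315 in treated marrow (SD, n = 5). The treated libraries held 0.161, 0.168, 0.233, 0.168 and 0.157, all but replicate 3 below the lowest control at 0.185. Replicate 3 lay above the highest control at 0.209. Igkc held 0.493 ± 0.0485 counts per heavy-chain count in controls and 0.585 ± 0.0338 after oxaliplatin (SD, n = 5). Ighm held 10.4 ± 2.28 counts per count of Ighd in controls and 9.38, 11.4, 49.4, 18.2 and 14.3 in the treated libraries, the outlying value being that of replicate 3.

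Set against Ighm, with each gene's log2 CPM reduced by that of Ighm in the same library and tested with limma over all genes, 6 of 9 antibody genes were called higher in oxaliplatin marrow. Since Ighm itself had fallen, 76.7% of all tested genes were called higher on this scale, with a median of 1.27, and the members' count is not above that share. The largest relative differences were those of Ighe at 3.40 (SE 0.91, adjusted p = 0.00533), Igha at 2.77 (SE 0.44, adjusted p = 2.26e-04) and Jchain at 2.61 (SE 0.36, adjusted p = 2.37e-05), all by limma. Igkc had 2.24 (SE 0.28), Ighg1 1.68 (SE 0.61) and Ighg2b 1.09 (SE 0.31), whereas Ighg2c at 1.75 (SE 0.79, adjusted p = 0.0688, limma) and Ighg3 at 0.98 (SE 0.92, adjusted p = 0.340, limma) were not called. Ighg2c was called without oxaliplatin replicate 3, which held most of it (1.05, adjusted p = 3.14e-05, limma), or without replicate 5 (2.07, adjusted p = 0.0467), and Ighg3 without control replicate 3 (1.68, adjusted p = 0.0438). Ighg1 lost its call without control replicate 1, 2 or 4 or oxaliplatin replicate 2 or 4 (adjusted p 0.0552 to 0.0676). Ighd, the other unswitched isotype, had a relative difference of -0.72 (SE 0.40, adjusted p = 0.115, limma), so that its fall beyond that of Ighm did not pass the test with all libraries, and did without control replicate 4 or oxaliplatin replicate 1 or 4 (adjusted p 3.77e-04 to 0.0184).

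In kidney the antibody genes were far scarcer and all 4 that could be tested fell: Ighm, Igha, Igkc and Jchain, by 2.41-fold, 3.30-fold, 3.49-fold and 3.39-fold in mean CPM. They were called lower in edgeR's test over 19293 genes, beside 3.81% of all tested genes called lower and 7.68% called higher. Their median log2 fold change was -1.74, beside 0.02 over all genes. For Ighm, Igha and Igkc every oxaliplatin library lay below every control, as it did for 11.0% of all tested genes, and no antibody gene had the reverse, which 9.69% of genes had. These 4 passed the count filter through their controls as well as their treated libraries, and the other 6 members held too few counts to be tested.

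**Figure D4:**
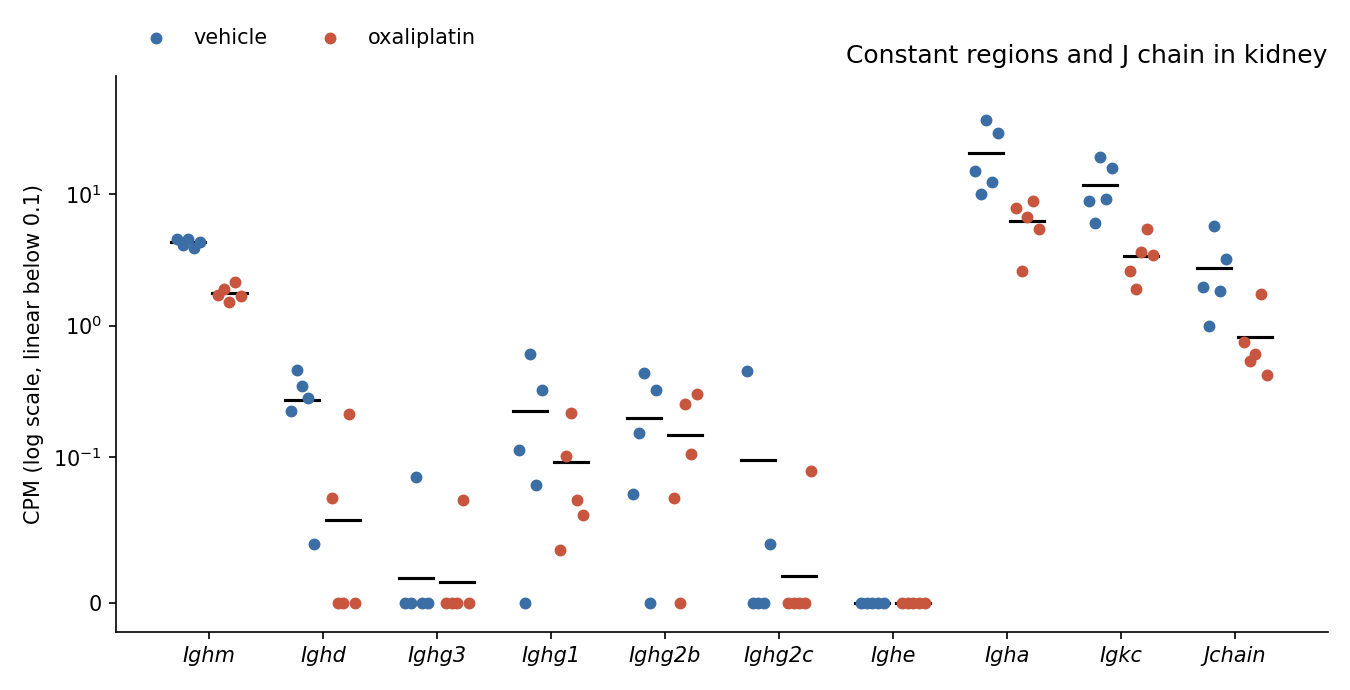
Level of each antibody gene in kidney, in CPM on a log axis that is linear below 0.1, for 5 control (vehicle) and 5 oxaliplatin libraries; each point is 1 library and each black line a group mean. Ighm, Igha and Igkc separate by treatment, 1 oxaliplatin library of Jchain at 1.75 CPM lies among the controls, and Ighe is at 0 in all 10 libraries.

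Ighm had 4.59, 4.12, 4.58, 3.90 and 4.33 CPM in control kidneys and 1.72, 1.89, 1.51, 2.14 and 1.68 CPM after oxaliplatin, from 97 to 123 and 42 to 61 counts. The spread within each group was small against the distance between them (log2 fold change -1.27, SE 0.16, adjusted p = 2.38e-05, edgeR). Igha, the most abundant heavy chain of the kidney libraries, had 15.0, 10.0, 37.1, 12.3 and 29.4 CPM in controls and 7.82, 2.59, 6.69, 8.88 and 5.49 CPM after oxaliplatin. Controls varied by more than 3-fold among themselves, with replicates 3 and 5 high, and the groups still did not overlap (log2 fold change -1.72, SE 0.46, adjusted p = 0.0234, edgeR). Igkc showed the same high control replicates, with 8.85, 6.06, 19.4, 9.18 and 15.8 CPM, and had 2.62, 1.89, 3.63, 5.40 and 3.45 CPM after oxaliplatin (log2 fold change -1.80, SE 0.37, adjusted p = 0.00542, edgeR). Jchain had 1.98, 0.991, 5.75, 1.85 and 3.24 CPM in controls and 0.754, 0.539, 0.611, 1.75 and 0.420 CPM after oxaliplatin, with 4 of 5 treated libraries below all controls (log2 fold change -1.76, SE 0.50, adjusted p = 0.0204, edgeR). Igha was no longer called without control replicate 5 or oxaliplatin replicate 5 (adjusted p 0.0560 and 0.0622), Jchain without oxaliplatin replicate 1, 3 or 5 (adjusted p 0.0501, 0.0502 and 0.0601), and with Y-linked expression as a covariate neither was (adjusted p 0.0722 and 0.0620).

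Of the members too scarce to test in kidney, Ighd held 34 counts over the 5 controls and 8 over the 5 treated libraries, and 3 treated libraries held none. Ighg1 held 27 and 14 counts, Ighg2b 24 and 22, Ighg2c 13 and 3, and Ighg3 2 and 2. Ighe had no count in any of the 10 kidney libraries, which allows up to 3 counts in each, or 0.0900 to 0.130 CPM. A refit over every gene with at least 1 count called none of them, and Ighe had no count to fit. In that refit Ighd had a log2 fold change of -2.20 (SE 0.85, adjusted p = 0.0639, edgeR). The isotype makeup of the kidney libraries thus rested on Ighm and Igha: the switched share was 79.2% ± 8.45 in controls and 76.1% ± 9.81 after oxaliplatin (SD, n = 5), with ranges of 69.0% to 88.6% and 58.8% to 82.6%. The exact 95% intervals of single libraries were 4.05 to 17.1 percentage points wide. Set against Ighm, 0 of 3 members were called by limma (0 at an unadjusted p under 0.05, and 0 with DESeq2 size factors): Igha differed by -0.40 (SE 0.46, adjusted p = 0.413), Igkc by -0.50 (SE 0.33, adjusted p = 0.159) and Jchain by -0.36 (SE 0.36, adjusted p = 0.324), each by limma. On that scale 95.3% of all tested genes were called in either direction. Without control replicate 2, Igkc was called relative to Ighm at -0.69 (adjusted p = 0.0236, limma).

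Some markers of other cell types were called in kidney and others were not. The 6 neutrophil and monocyte markers summed to 70.6 to 93.8 CPM in controls and 34.3 to 52.4 CPM after oxaliplatin, with 1 testable and called lower, and 4 of the 6 at or under 3 counts in every control, 1 of them at 0. The 3 macrophage markers summed to 15.4 to 17.7 CPM and 8.08 to 13.6 CPM, with 2 of 3 called lower, and the 4 B cell markers to 1.296 to 2.72 CPM and 0.370 to 1.22 CPM, with 1 testable and not called. The 5 T cell markers summed to 2.78 to 4.67 CPM and 2.01 to 3.06 CPM, with none of the 3 tested called. The 6 erythroid markers summed to 257 to 425 CPM and 47.5 to 706 CPM with none called, the 4 plasma cell markers to 18.1 to 20.9 and 22.8 to 35.1 CPM with none called, and the 5 tubule markers to 15751 to 18694 CPM and 14332 to 17050 CPM with none called. Adipocyte markers, with 3 of 4 tested called higher, summed to 18.8 to 34.5 CPM and 47.6 to 113 CPM, and the 2 podocyte markers, both called higher, to 50.3 to 58.8 CPM and 92.7 to 115 CPM. The part of these cells in the results was not tested. Scaling by library size alone moved the median over all genes from 0.02 to 0.16 and the called genes from 1481 higher and 735 lower to 2245 and 470, and the 4 antibody genes were called lower under each scaling.

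Among the 4 antibody genes tested in both tissues, the response differed between tissues for 3. The other 6 members, too scarce for the count filter in kidney alone, entered the interaction fit through their marrow counts and were not called. Their standard errors ran from 0.79 for Ighg2b to 7703 for Ighe, so that this gives no reading on whether their responses differed. In 1 edgeR model over all 20 libraries, the kidney response minus the marrow response was -3.32 on the log2 scale for Igha (SE 0.54, adjusted p = 9.86e-05), -3.16 for Jchain (SE 0.57, adjusted p = 2.81e-04) and -2.82 for Igkc (SE 0.40, adjusted p = 1.96e-05). All of these were called, beside 12.8% of 24321 genes called lower in kidney than in marrow. For Ighm the difference was 0.01 (SE 0.24, adjusted p = 0.988, edgeR), with a fall of 1.34 in marrow and of 1.27 in kidney, which does not show that the falls were alike beyond that error. Libraries of the tissues are not tied to the same mouse by any label. Any difference in how marrow and kidney RNA were extracted cannot be told apart from the tissue.

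Other genes of antibody biology are given from lists chosen with earlier results of these data known. Of 12 genes of B cell surface and identity, 11 were called lower in marrow, with a median log2 fold change of -2.23. Pax5, the factor that holds B cell identity, fell from 114 ± 26.1 to 16.2 ± 4.95 CPM (SD, n = 5 each; log2 fold change -2.82, SE 0.22, adjusted p = 1.93e-06, edgeR). Cd79a, a signalling subunit of the B cell receptor, fell from 79.4 ± 20.04 to 17.1 ± 2.58 CPM, and Ebf1, another B lineage factor, from 95.5 ± 19.4 to 47.5 ± 11.0 CPM (SD, n = 5 each). Cd37 was the gene not called, at 178 ± 14.4 and 128 ± 32.1 CPM. Of 7 genes of pre-B cells and V(D)J recombination, 3 were called lower and 4 were not called, with a median of -1.59. Rag1, part of the recombinase, had 29.5 to 69.8 CPM in controls and 0, 0.219, 14.6, 8.17 and 0.377 CPM after oxaliplatin (log2 fold change -3.40, SE 1.09, adjusted p = 0.0374, edgeR). Replicates 3 and 4 thus kept Rag1 and the other 3 had almost none, and the same 2 libraries held 11.6 and 8.46 CPM of Igll1, a surrogate light chain, against 0.0576 to 0.485 CPM in the others. Vpreb3 fell from 19.2 ± 5.85 to 2.22 ± 2.29 CPM (SD, n = 5), and Dntt, which adds bases at the joins, was not called at 25.5 ± 6.94 and 9.34 ± 12.4 CPM (SD, n = 5).

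**Figure D5:**
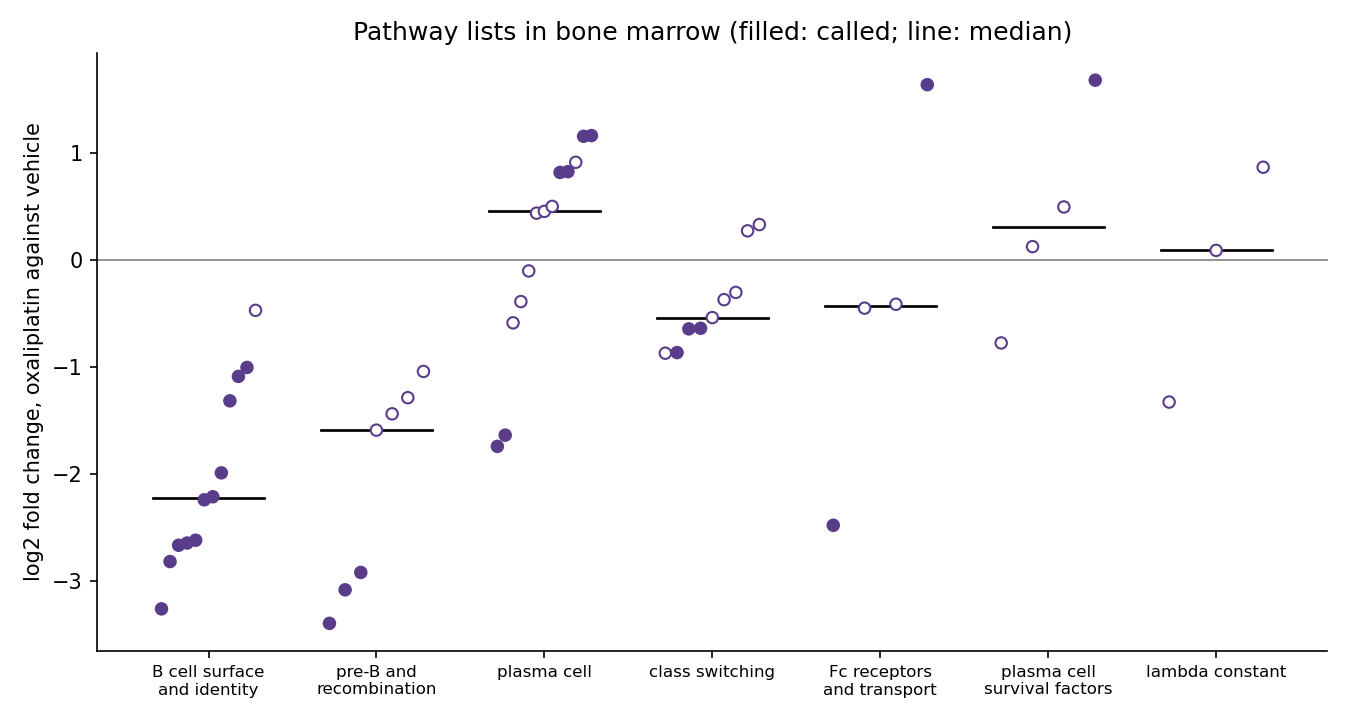
Log2 fold change of oxaliplatin against control (vehicle) in bone marrow for the tested genes of 7 lists of antibody biology; each point is 1 gene, filled where called, and each line is the list's median. The B cell list lies almost wholly below 0 with a median of -2.23, and the plasma cell list spreads to both sides with a median of 0.45.

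Plasma cell genes split. Of 13 in marrow, 4 were called higher and 2 lower, with a median log2 fold change of 0.45. Xbp1, the factor that expands the secretory machinery, rose from 119 ± 8.30 to 210 ± 17.4 CPM (SD, n = 5 each; log2 fold change 0.82, SE 0.09, adjusted p = 1.47e-05, edgeR), with every treated library above every control. Txndc5, a folding enzyme of the endoplasmic reticulum, had 94.9 ± 6.42 and 130 ± 24.2 CPM and was not called, nor was the receptor Tnfrsf13b at 32.3 ± 5.02 and 30.04 ± 4.75 CPM (SD, n = 5 each). Pou2af1, a coactivator of antibody genes that B cells also express, fell from 66.8 ± 16.6 to 21.4 ± 2.58 CPM. The other called genes, named after their values were seen, were Sdc1 (CD138, the surface marker of plasma cells; 18.1 ± 2.34 and 40.4 ± 10.9 CPM), Prdm1 (the factor Blimp-1; 6.44 ± 0.967 and 11.3 ± 2.39 CPM) and Fkbp11 (2.07 ± 0.691 and 4.59 ± 1.41 CPM), which rose, and Irf4, which B cells and other leukocytes also use, which fell from 46.0 ± 11.2 to 13.7 ± 4.23 CPM (SD, n = 5 each). The 4 plasma cell markers Sdc1, Tnfrsf17, Mzb1 and Derl3, all in this list, summed to 22.2 to 26.7 CPM in controls and 35.9 to 65.5 CPM after oxaliplatin. Most of that sum was Sdc1, the only one called. Mean CPM went from 4.88 to 6.89 for Derl3, from 0.644 to 1.21 for Tnfrsf17 and down from 0.998 to 0.755 for Mzb1. The 4 B cell markers summed to 156 to 281 CPM in controls and 38.8 to 48.9 CPM after oxaliplatin.

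In marrow, of 9 tested genes of class switching, 3 were called lower and the other 6 were not called, with a median log2 fold change of -0.54. Among the 4 with the highest levels, Apex2 and Rnf8, of DNA repair, fell from 31.3 ± 2.21 to 17.1 ± 2.84 and from 22.3 ± 2.97 to 14.2 ± 1.33 CPM, whereas Bcl6 and Exo1 were not called. The third gene called lower was Lig4, a DNA ligase, named after its values were seen. Of 4 tested Fc receptors and carriers, Fcgrt, the receptor that protects IgG from breakdown, rose from 57.4 ± 7.34 to 178 ± 47.6 CPM, and Fcmr, the IgM receptor of B cells, fell from 28.4 ± 6.38 to 5.10 ± 2.16 CPM. Cd5l, which binds IgM, and Trim21, a cytosolic antibody receptor, were not called. Of 4 plasma cell survival factors, Il6 rose from 0.474 ± 0.173 to 1.53 ± 0.902 CPM (SD, n = 5 each). Cxcl12, Tnfsf13 and Tnfsf13b were not called. The lambda constant regions Iglc1, Iglc2 and Iglc3 were not called by edgeR (adjusted p = 0.161, 0.849 and 0.0926): Iglc1 had 22.3 ± 6.75 and 40.6 ± 29.1 CPM, Iglc2 11.6 ± 2.68 and 12.3 ± 5.45 CPM, and Iglc3 11.1 ± 8.90 and 4.402 ± 2.97 CPM (SD, n = 5 each). Lambda made up 6.05% ± 1.02 of light-chain constant counts in controls and 4.24% ± 1.78 after oxaliplatin (SD, n = 5).

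In kidney most of these genes were scarce or also made by kidney cells. Of 10 tested plasma cell genes, 1 was called lower, and it was not one of those with the highest levels: Slamf7 fell from 1.58 ± 0.336 to 0.471 ± 0.132 CPM (SD, n = 5). Xbp1 was not called at 136 ± 30.2 and 102.4 ± 6.79 CPM, and Sdc1, at 17.1 ± 0.738 and 25.0 ± 4.85 CPM, missed the fold threshold. Of 6 tested genes of the B cell list, Cd72 and Cd37 fell, from 2.18 ± 0.263 to 1.29 ± 0.444 and from 1.70 ± 0.431 to 0.996 ± 0.422 CPM, and Ebf1 rose from 6.80 ± 0.486 to 11.4 ± 1.47 CPM. Cr2 was not called at 1.64 ± 0.663 and 2.04 ± 0.616 CPM. Of the transport list, Fcgrt fell from 330 ± 15.5 to 218 ± 17.5 CPM and Fcamr, a receptor for IgM and IgA, from 50.5 ± 7.12 to 23.5 ± 7.10 CPM (SD, n = 5 each). Pigr, the receptor that carries J-chain-bearing antibody across epithelium, was at 179 ± 19.7 and 187 ± 25.6 CPM (log2 fold change 0.06, SE 0.10, adjusted p = 0.664, edgeR). Trim21 was not called either. Of 8 tested switching genes, Ung and Exo1, which act in DNA repair in many cells and were named after their values were seen, rose. The other 6, Bcl6, Apex2, Lig4 and Rnf8 among them, were not called. Of 3 tested survival factors, Tnfsf13 rose from 0.572 ± 0.277 to 1.10 ± 0.101 CPM, and Cxcl12 and Tnfsf13b were not called.

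The genes most like each of 3 members in their variation between libraries were found by Pearson's r of log2 CPM over the 10 libraries of a tissue, after the group means were removed, among 14649 genes in marrow and 13635 in kidney. In marrow, Jchain was most like Igkc (r = 0.98), Igha (r = 0.97) and the joining segment Ighj2 (r = 0.94), followed by Ahnak2 and Tecpr1 (both r = 0.92). Igha was most like Stat2 (r = 0.97), Jchain (r = 0.97), Ighj2 (r = 0.95), Igkc (r = 0.94) and Tecpr1 (r = 0.94). The 5 genes most like Ighm were Ercc4 (r = 0.92), Rpf1 (r = 0.91), Dhx8 (r = 0.88), Zfp874b (r = 0.88) and Zbtb44 (r = 0.87), with no antibody gene among them. In kidney, Igha was most like Rras (r = 0.93) and Ighm most like Synj2 (r = 0.93), with Igkc not among the 5 most like Igha, and Jchain was too scarce to enter this search. Each r was among the highest of all those genes over 10 libraries that share depth and scaling, and is given as a description.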

How the data were processed

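Both tables were deposited by the authors as raw counts, 1 value per gene and library. By the methods text, reads were aligned with STAR to Ensembl release 101 and imported into Partek Flow, and only reads with 1 clear position and gene were counted. The upstream tools named with the data also include featureCounts and Salmon, so that the tool that made the deposited counts is not settled. Strand setting and read length are not given in the sources used here. The sample records describe ribosomal RNA removal with random priming, and the methods text another kit. The 10 genes were taken by symbol. Members and gene lists were chosen with earlier results of these data known. Counts were filtered with filterByExpr (minimum count 10), scaled by TMM and tested with edgeR 4.0.16 (R 4.3.3) quasi-likelihood fits, oxaliplatin against control in each tissue and as a tissue by treatment interaction. Values relative to Ighm were tested with limma 3.58.1 (trend, robust; prior count 2), and all share the error of Ighm. Adjusted p-values are Benjamini-Hochberg over all tested genes; called means below 0.05 and beyond 1.5-fold. CPM are scaled by TMM. Replicates are biological by the labels, and no pair of libraries agreed within sampling noise (lowest chi-square per degree of freedom 6.83). Alternatives were DESeq2 1.42.0, other scalings and filters, hemoglobin genes left out, a Y-linked covariate, a replicate block and leaving out each library. Genes named from each list are the 4 with the highest mean CPM, beside called genes that were named after their values were seen. For likeness they are the 5 with the highest r. Positions and sequences are from GENCODE M21. The fits were tested on simulated data.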

Additional observations from a re-analysis of the deposited data

Results flagged for a closer look

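Among 44 sets of 5 values (each gene's CPM and the switched share in each group), 10 had 1 library far from the other 4 by Dixon's test at 95%; chance gives about 1 in 20 for continuous values, a rate that does not hold for the sparse kidney counts. In 3 of the kidney sets (both Ighg3 groups and Ighg2c after oxaliplatin) 4 libraries were at 0 and 1 held 2 or 3 counts, within the limit that a count of 0 allows, so that they met the criterion by construction. In marrow these were Ighg3 in control replicate 3 (47.5 CPM), Ighg2b in control replicate 1 (41.8 CPM, low), Ighg2c in oxaliplatin replicate 3 (264 CPM) and Ighe in oxaliplatin replicate 1 (5.47 CPM). In kidney they were Ighg3 in control replicate 3 (0.0864 CPM, 2 counts) and oxaliplatin replicate 4 (0.0702 CPM, 2 counts), Ighg2c in control replicate 1 (0.448 CPM, 12 counts) and oxaliplatin replicate 5 (0.0900 CPM, 3 counts), Jchain in oxaliplatin replicate 4 (1.75 CPM) and the switched share of oxaliplatin replicate 2 (58.8%, from 136 heavy-chain counts).

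The response to oxaliplatin differed between kidney and marrow in the interaction test of edgeR for Igha (-3.32 on the log2 scale, kidney minus marrow), Jchain (-3.16) and Igkc (-2.82). Each of the 3 remained called in all 20 fits that left out 1 library and in the 8 other refits, with values from -3.49 to -3.004, -3.64 to -2.72 and -3.05 to -2.58 over the fits without 1 library.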

How the results depend on the processing

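Ighm, Ighd, Igha and Jchain in marrow, and Ighm and Igkc in kidney, kept direction and call in all refits and thresholds. Igkc in marrow did so in all refits but not with a fold beyond 2, since its log2 fold change was 0.97. Members called in marrow stayed at 5 or 6 of 10 in all refits (without 1 library, 5 to 6), with Ighe lost when every gene with at least 1 count was tested (adjusted p = 0.112) and under the replicate block (adjusted p = 0.0936). Members called in kidney numbered 2 with the Y-linked covariate and 2 to 4 without 1 library, 2 being without oxaliplatin replicate 5. Jchain in kidney was not called either when every gene with at least 1 count was tested (adjusted p = 0.0762). The causes of these changes were not tested. Although the methods text names both sexes, all 20 libraries carried Y-linked expression, at a mean of 4.21 to 5.43 log2 CPM. The covariate therefore spans a narrow range. The replicate block, fitted although the same number marks different mice, gave 5 members called in marrow and 4 in kidney; deviations of same-numbered libraries correlated from -0.118 to 0.228 in marrow and from -0.154 to 0.0754 in kidney, and 1 of 5 controls in each tissue was closest to its own number. Relative to Ighm, the block called 9 of 9 members in marrow, with Ighd, Ighg3 and Ighg2c added, beside 17208 of 22362 genes. The Y-linked covariate called 7 of 9, with Ighg2c added (2.07, adjusted p = 0.0364, limma), beside 17572 of 22362 genes. Members called in kidney relative to Ighm were 1 of 8 with every gene of at least 1 count, and 0 to 1 without 1 library. The first was called higher, as were 34647 of 37269 genes in that setting. It was a scarce member, since Igha, Igkc and Jchain stayed below 0 in these settings. The call without 1 library was that of Igkc, which was lower. The interaction of Ighm, near 0, changed sign to -0.0017 with every gene of at least 1 count and -0.017 without hemoglobin genes, and ranged from -0.081 to 0.094 without 1 library. It had no call in any of these. Without 1 library in marrow, Ighg3 ranged from -1.19 to 0.52, Ighg1 from -0.065 to 0.64 and Ighg2c from -0.43 to 1.60. Genes called at a fold beyond 2 numbered 3231 in marrow, 941 in kidney and 3529 in the interaction, and by adjusted p alone 5679 in kidney. With every gene of at least 1 count, 31216 and 34692 were called relative to Ighm in marrow and kidney, more genes being tested. The switched share per exon length was 48.5% in control marrow. Low counts limited 6 members in kidney.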

Other observations

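Variable segments were looked at in 3 of the 4 marrow libraries that stood apart for an IgG or IgE gene, those with a high value, a choice made after their values were seen; control replicate 1, low for Ighg2b, was not looked at. A variable segment is the part of an antibody gene that a B cell joins to a constant region. Oxaliplatin replicate 1 had the most Ighe, at 5.47 CPM, and also the most Ighg1, at 84.2 CPM against 21.9 to 44.4 CPM in the other treated libraries. In it, Ighv9-2 stood at 167 CPM against 0.512 to 3.54 CPM in the other 4 treated libraries and at most 1.04 CPM in controls. The kappa segment Igkv6-17 stood at 94.6 CPM against 4.31 to 22.3 CPM. In oxaliplatin replicate 3, the library with the most Ighg2c, Ighv5-16 stood at 23.3 CPM against 0.539 to 4.70 CPM, and Igkv3-4 at 14.9 CPM against 0.374 to 2.88 CPM. In control replicate 3, the library with the most Ighg3, 2 kappa segments stood at 13.7 and 13.8 CPM against at most 0.886 and 1.45 CPM in the other controls, and Ighv10-1 at 13.1 CPM against 2.34 to 4.36 CPM. Segments were picked as those farthest above the rest of their group, so a high value in that library is part of the choice, and the counts do not tie a variable segment to a constant region.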
